A study of Mus musculus with 8 samples.

Results

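The genes described here are 10 mouse genes that start or carry out DNA replication: the transcription factor genes E2f1, E2f2 and E2f3, the helicase subunit genes Mcm2, Mcm3, Mcm4, Mcm5, Mcm6 and Mcm7, and the sliding clamp gene Pcna. They were chosen by symbol from 21887 protein-coding genes of a RefSeq table, and all 10 were found. For each gene, every peak within the gene span or 50 kb either side was collected from 6 CUT&Tag peak lists, and each peak was placed at a gene end (within 1 kb of either end of the span), in the gene body or in the flank. This gave 85 peaks, from 20 around Mcm2 to 0 around Mcm3.

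E2F1, E2F2 and E2F3 are activators of genes needed for DNA synthesis and are held back by the retinoblastoma protein until cyclin-dependent kinases phosphorylate it. MCM2 to MCM7 form a ring-shaped complex that is loaded at replication origins in G1 and unwinds DNA in S phase, and PCNA is the ring that keeps DNA polymerases on their template. Many of these genes are themselves E2F targets, and cells that leave the cycle to become neurons normally stop expressing them.

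The cells were iMOPs, an immortalized line of mouse otic progenitors labelled wild-type. The iMOP-derived neurons were grown in Neurobasal medium with N21 supplement and 1 µM K03861, an inhibitor of CDK2, and the proliferating iMOPs in DMEM/F12 with B27 supplement and 20 ng/ml bFGF; the labels give the treatment of both as none. The targets were CHD4 (the ATPase of the NuRD remodelling complex), H3K4me3 (a histone modification found at active promoters) and p300 (a histone acetyltransferase), each profiled in 1 library per state; nothing here was replicated, and no test was made. The lists held between 965 peaks (p300 in neurons) and 7472 peaks (H3K4me3 in proliferating cells), with 4599 CHD4 peaks in neurons and 4919 in proliferating cells; read depth is unknown and the 2 IgG libraries were not analysed here. H3K4me3 lay at an end of 4 of 7 progenitor markers in neurons and 7 of 7 in proliferating cells, of 3 of 3 proliferation markers in each state, and of 2 of 10 neuron markers in each state (Tubb3 and Map2), with the others, including Neurod1, Isl1 and Prph, listed at neither; of hair cell, glia and mesenchyme markers it lay at 1 of 5, 2 of 5 and 1 of 4 in both states. The H3K4me3 lists therefore separate the 2 states at Id3, Etv4 and Etv5 but do not separate them by neuron or proliferation markers.

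H3K4me3 was listed at an end of the same 8 of the 10 genes in both states, CHD4 at 5 genes in neurons and 6 in proliferating cells, and p300 at 0 genes in neurons and 6 in proliferating cells. Among all protein-coding genes H3K4me3 was at an end of 30% in neurons and 37.6% in proliferating cells (29.4% in both states), CHD4 at 9.95% in neurons and 11.8% in proliferating cells, and p300 at 1.24% in neurons and 8.44% in proliferating cells (0.343% in neurons only, 7.54% in proliferating cells only and 0.896% in both). The genes with CHD4 at an end in both states were E2f1, E2f2, E2f3 and Mcm7, so all 3 E2F genes but 1 of 6 MCM genes. Mcm2 was listed in neurons only, and Mcm6 and Pcna in proliferating cells only; across all genes, 2.45% had CHD4 at an end in neurons only, 4.27% in proliferating cells only and 7.49% in both. Of the 8 genes with H3K4me3 at an end, 4 also had CHD4 at an end in neurons and 6 in proliferating cells, against 23.6% in neurons and 27.1% in proliferating cells of all genes with H3K4me3 at an end. p300 was at 0 of these 8 genes in neurons and at 6 in proliferating cells, against 2.65% in neurons and 19.8% in proliferating cells of all genes with the mark. Mcm3 alone had no peak of any list at an end, as did 59.2% of all genes. The genes were chosen with such counts known, so the counts stand beside these shares as a description.

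**Figure D1:**
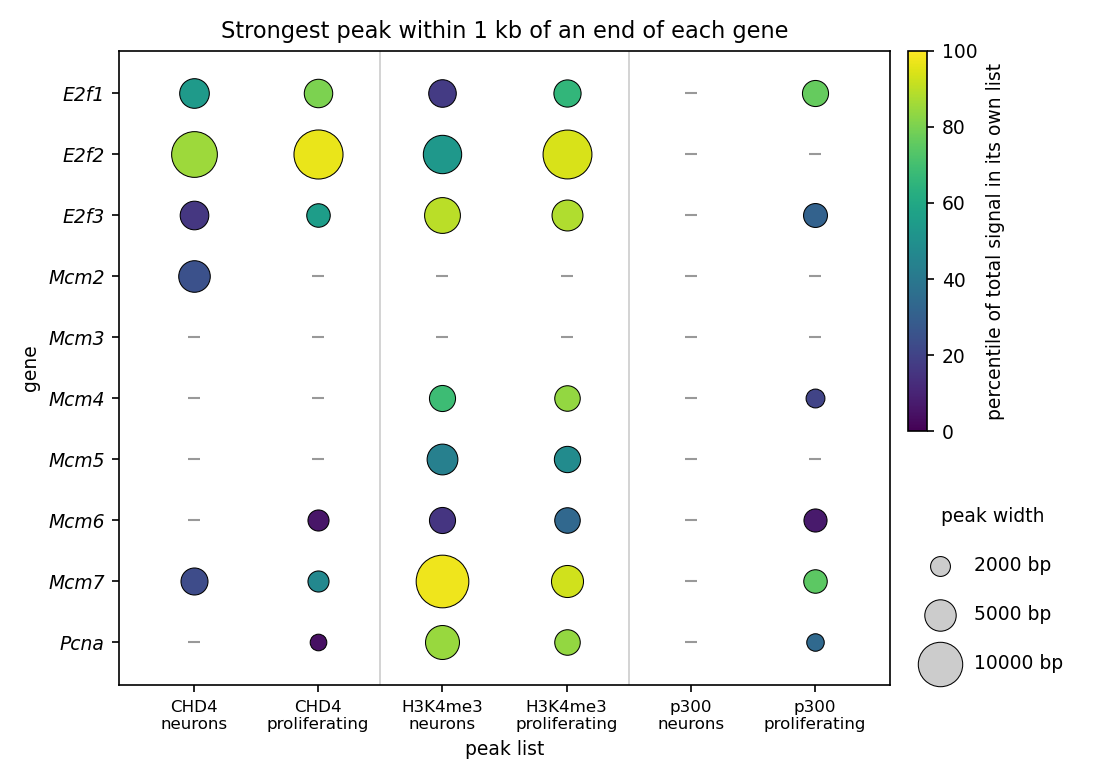
Strongest peak within 1 kb of an end of each gene (rows) in each of the 6 peak lists (columns), with neurons left of proliferating cells for each antibody. Circle area is the peak width in bp, colour is the percentile of total signal within the peak's own list, and a dash means that no peak was listed. The E2F genes and Mcm7 have CHD4 and H3K4me3 in both states, the neuron p300 column is empty, and Mcm3 has no peak in any column.

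Peak strength is given below as a percentile, the share of peaks in the same list whose total signal is no higher. The lists differ in length and their signal scale is not given, so percentiles from 2 lists stand side by side as descriptions and do not show a change. Total signal grows with width. For genes with CHD4 at an end, the median percentile of the strongest such peak was the 24.7th in neurons and the 50.9th in proliferating cells, against the 49.6th in neurons and the 44.0th in proliferating cells over all genes with CHD4 at an end. The neuron median is the value of the Mcm2 peak, whose highest signal lay at the neighbouring gene Tpra1. The other neuron values were the 15.9th (E2f3), 22.7th (Mcm7), 54.2nd (E2f1) and 85.4th (E2f2). For H3K4me3 the median was the 60.8th in neurons and the 83.9th in proliferating cells, against the 55.2nd in neurons and the 56.1st in proliferating cells over all genes with the mark. For p300 in proliferating cells it was the 32.4th, against the 52.5th over all genes with p300 at an end. These medians depend on the ranking. By signal per bp they were 39.5 for CHD4 and 30.4 for H3K4me3 in neurons. In proliferating cells they were 68.3 for CHD4, 74.1 for H3K4me3 and 71.5 for p300.

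E2f1, the E2F factor best known for driving entry into S phase, lies on the minus strand at chr2:154559400-154569892 (mm10) and had CHD4 over its start in both states. The CHD4 peak covered chr2:154567401-154571850 in neurons (54.2nd percentile) and chr2:154567751-154571850 in proliferating cells (80.2nd), with the same outer edge. The position of highest CHD4 signal lay 400.5 bp inside the gene from its annotated start in neurons and 450.5 bp in proliferating cells, which is 1 step of the 50-bp grid. H3K4me3 spanned 3850 bp at the 17.3rd percentile in neurons and 3750 bp at the 65.9th in proliferating cells. Its highest signal was at the 1.39th percentile of the list in neurons and at the 26.6th in proliferating cells, so E2f1 had among the lowest H3K4me3 summits of the neuron list. p300 at the E2f1 start was listed in proliferating cells only, from 154567551 to 154571000 at the 76.2nd percentile, and its highest signal fell on the same 50 bp as that of CHD4. A second p300 peak of 8400 bp in proliferating cells reached the other end of E2f1, but its highest signal lay at Actl10, 16750.5 bp from the E2f1 start.

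Upstream of E2f1, at an end of the peroxisomal membrane gene Pxmp4, CHD4 and p300 were listed together in both states. The CHD4 peak there was 11200 bp wide in neurons (89.6th percentile) and 5550 bp wide in proliferating cells (73.4th). The p300 peak spanned 4150 bp in neurons (54.5th percentile) and 4350 bp in proliferating cells (72.5th). It was 1 of only 3 neuron p300 peaks within 50 kb of any of the 10 genes, and no H3K4me3 peak overlapped it in either state. At the other end of Pxmp4, CHD4 (5.26th percentile) and H3K4me3 (15.6th) were listed in proliferating cells only. Both had their highest signal there on chr2:154603651-154603700.

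E2f2, which encodes another activator E2F, had the widest CHD4 peak at an end of any of the 10 genes in both states, and the one with the highest percentile of total signal. By highest signal this peak also stood first, at the 72.6th percentile in neurons and the 90.9th in proliferating cells. By signal per bp it did not, at the 39.5th in neurons and the 45.9th in proliferating cells. Its strongest point was not at the outer start. The gene lies on the plus strand at chr4:136172274-136196057, with a second annotated start 8508 bp inside it. CHD4 covered both starts as a peak of 10600 bp in neurons (chr4:136171401-136182000, 85.4th percentile) and of 12200 bp in proliferating cells (chr4:136169801-136182000, 96.6th). The position of highest CHD4 signal was the same 50 bp in both states, chr4:136180701-136180750, centred 56.5 bp before the internal start. In proliferating cells a p300 peak of 2400 bp (66.3rd percentile) had its highest signal on the same 50 bp.

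H3K4me3 at E2f2 had its highest signal near the outer start instead, 601.5 bp into the gene in both states. The mark reached over the internal start in proliferating cells, where its peak spanned 12100 bp (93.8th percentile). In neurons it spanned 7450 bp (53.2nd percentile) and ended 2332 bp short of the internal start, whereas CHD4 still covered that start. By signal per bp the mark stood at the 4.44th percentile in neurons and the 11.4th in proliferating cells. E2f2 was the only 1 of the 8 marked genes whose H3K4me3 peak was narrower in neurons, by 4650 bp, and the only 1 of the 4 genes with CHD4 in both states whose CHD4 peak was narrower in neurons, by 1600 bp. p300 in proliferating cells did not count at a gene end of E2f2, because its first peak began 1527 bp past the outer start, beyond the 1-kb window; both p300 peaks lay in the gene body.

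The promoter sequences of both E2f2 starts, from 250 bases before to 50 after each start, are shown because CHD4 and H3K4me3 peaked at different ones (RefSeq, GRCm38.p6, plus strand, 5′ to 3′). At the outer start, chr4:136172024-136172323, the capitals mark the 1 match to an E2F core, which lies after the start. At the internal start, chr4:136180532-136180831, no core matched and the capitals mark the 50 bases of highest CHD4 signal.
E2f2 outer start: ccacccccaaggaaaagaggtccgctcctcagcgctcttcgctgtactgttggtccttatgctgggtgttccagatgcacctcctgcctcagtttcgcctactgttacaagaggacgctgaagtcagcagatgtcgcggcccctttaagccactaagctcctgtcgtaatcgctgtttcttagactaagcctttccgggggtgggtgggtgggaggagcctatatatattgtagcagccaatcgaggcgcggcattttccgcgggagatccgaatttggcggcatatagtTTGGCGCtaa
E2f2 internal start: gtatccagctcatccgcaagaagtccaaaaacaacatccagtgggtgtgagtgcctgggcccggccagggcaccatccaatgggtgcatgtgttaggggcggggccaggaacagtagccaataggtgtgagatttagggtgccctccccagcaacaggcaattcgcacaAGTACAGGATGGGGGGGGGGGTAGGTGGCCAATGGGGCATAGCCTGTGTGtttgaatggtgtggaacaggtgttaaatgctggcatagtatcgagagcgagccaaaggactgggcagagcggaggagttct

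**Figure D2:**
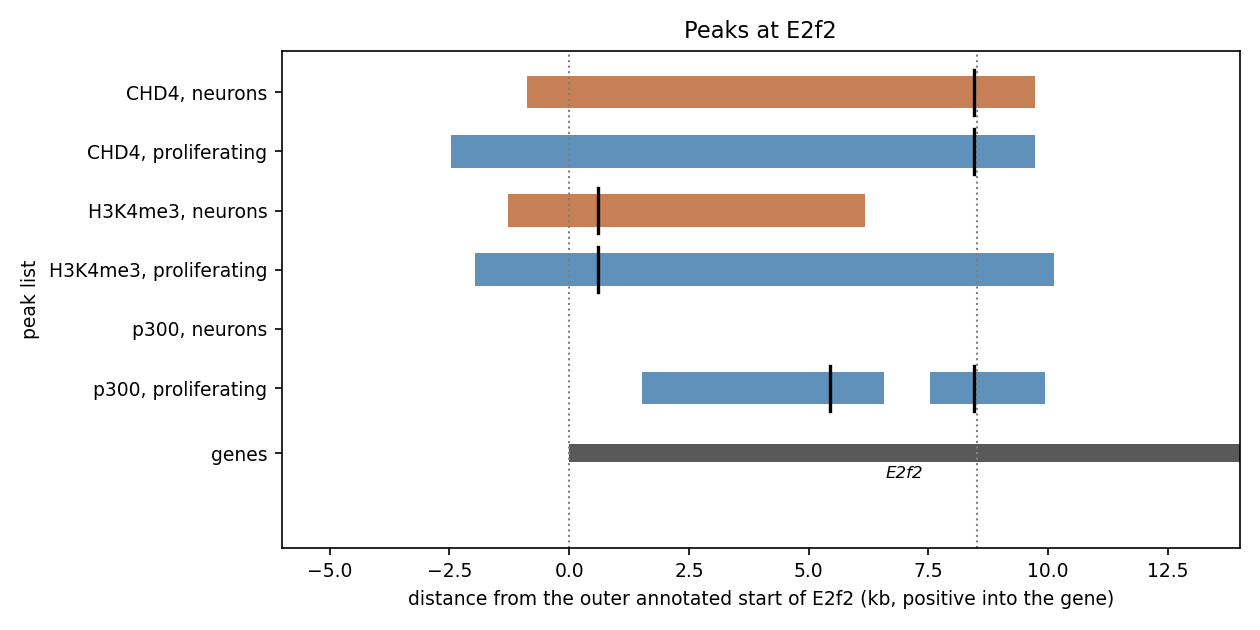
Peaks of the 6 lists at E2f2, with distance from the outer annotated start in kb on the x axis and 1 row per list, neurons in orange above proliferating cells in blue. Bars are peaks, black ticks are positions of highest signal, and dotted lines are the 2 annotated starts. The CHD4 ticks of both states and 1 p300 tick stand at the internal start, and both H3K4me3 ticks stand near the outer start.

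In the flank of E2f2 lies Id3, an inhibitor of bHLH factors, whose span ends 26882 bp before E2f2 begins. CHD4 was listed at an end of Id3 in both states, as 8000 bp in neurons (47.6th percentile) and as 10700 bp in proliferating cells (94.1st). H3K4me3 (11000 bp, 93.3rd percentile) and p300 (10600 bp, 92.8th percentile) were listed at Id3 in proliferating cells only. A further CHD4 peak 20194 bp beyond the E2f2 span in neurons (46.8th percentile) and 20444 bp beyond it in proliferating cells (10.1st) overlapped no other antibody's peak.

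E2f3, which encodes an activator E2F in 2 forms made from separate starts, had CHD4 at its outer start in both states, and its 5 peaks within 50 kb all lay at that end of the gene. The gene lies on the minus strand at chr13:29906575-29986064, with annotated starts 1672 bp apart. CHD4 spanned 4150 bp in neurons (chr13:29982851-29987000, 15.9th percentile) and 2800 bp in proliferating cells (chr13:29984251-29987050, 55.3rd). Its highest signal lay 162.5 bp upstream of the outer start in neurons and 212.5 bp upstream of it in proliferating cells, and p300, listed in proliferating cells only (31.0th percentile), had its highest signal on the same 50 bp as CHD4. H3K4me3 was high in total signal in both states, at the 89.7th percentile over 6500 bp in neurons and the 88.0th over 4850 bp in proliferating cells. By highest signal the mark stood at the 63.4th percentile in neurons and the 36.5th in proliferating cells, and by signal per bp at the 61.0th and the 79.6th. Its highest signal fell between the 2 starts, 787.5 bp inside the outer one, in both states, so that CHD4 and H3K4me3 summits lay 950 bp apart in neurons and 1000 bp apart in proliferating cells. The outer E2f3 promoter at chr13:29986014-29986313, which holds the CHD4 summit of both states, is shown with its 2 E2F cores in capitals, on either side of the start.
E2f3 outer start: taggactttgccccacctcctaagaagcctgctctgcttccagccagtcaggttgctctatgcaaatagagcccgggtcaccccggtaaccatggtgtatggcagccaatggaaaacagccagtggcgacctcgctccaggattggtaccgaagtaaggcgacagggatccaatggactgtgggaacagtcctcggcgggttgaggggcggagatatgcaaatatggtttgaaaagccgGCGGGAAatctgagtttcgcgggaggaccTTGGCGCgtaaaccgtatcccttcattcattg

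Mcm7 was the only MCM gene with CHD4 over its own start in both states. It lies on the minus strand at chr5:138164583-138172111 and overlaps its divergent neighbour Ap4m1, an adaptor protein gene, by 91 bp, so that the peaks belong to both genes. CHD4 spanned 3700 bp in neurons (chr5:138170651-138174350, 22.7th percentile) and 2250 bp in proliferating cells (chr5:138170701-138172950, 46.5th). Its highest signal was on the same 50 bp in both states, 90.5 bp inside the inner of 2 annotated starts. p300 in proliferating cells (74.9th percentile) shared that position, and no p300 peak was listed in neurons. No CHD4 or p300 peak lay in the Mcm7 flanks, and the 6 flanking H3K4me3 peaks, 2 in neurons and 4 in proliferating cells, each lay at an end of another gene.

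H3K4me3 at Mcm7 extended over the whole gene in neurons. The neuron peak was 14050 bp wide (chr5:138160301-138174350, 97.3rd percentile, rank 152 of 5625) and the proliferating peak 5200 bp wide (chr5:138168851-138174050, 92.8th percentile, rank 538 of 7472). By signal per bp the neuron peak stood at the 18.2nd percentile and the proliferating peak at the 84.8th. The neuron peak also covered the neighbouring gene Cops6, whose span lies 599 bp beyond that of Mcm7, and the 3 miRNA hairpins inside Mcm7 that make up the miR-106b-25 cluster; the proliferating peak covered none of the hairpins. The difference of 8850 bp was the largest among the 8 genes with H3K4me3 in both states. The mature miRNAs usually taken as the main products are shown because they lie in the stretch covered in neurons only; they come from RefSeq, with the seed (bases 2 to 8) in capitals. miR-106b-5p and miR-93-5p share 1 seed and miR-25-3p has another.
mmu-miR-106b-5p: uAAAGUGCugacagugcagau
mmu-miR-93-5p: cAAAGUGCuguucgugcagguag
mmu-miR-25-3p: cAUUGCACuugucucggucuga

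**Figure D3:**
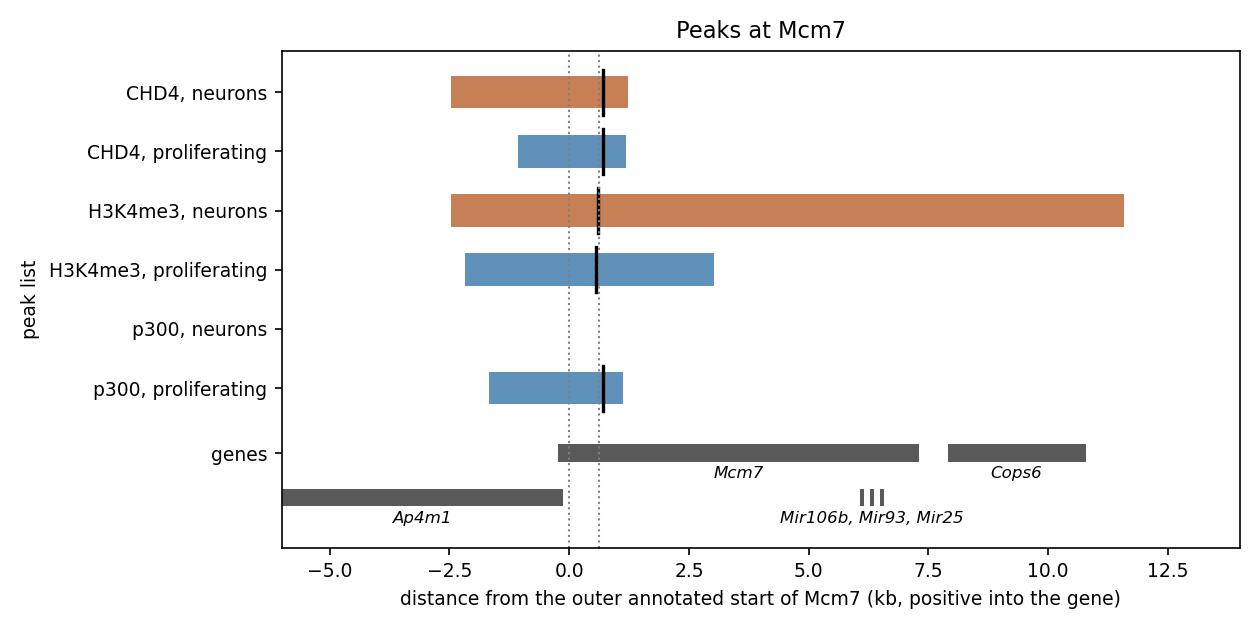
Peaks of the 6 lists at Mcm7, with distance from its outer annotated start in kb on the x axis, positive into the gene, and 1 row per list, neurons in orange above proliferating cells in blue. Bars are peaks, black ticks are positions of highest signal, dotted lines are the 2 annotated starts, and grey bars are genes. The neuron H3K4me3 bar runs over Mcm7, the 3 miRNA hairpins and Cops6, and the proliferating one stops before the hairpins.

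Mcm2, whose product also binds histones at the replication fork, had no H3K4me3 at an end in either state, and its CHD4 call in neurons came from a peak centred on another gene. Mcm2 lies on the minus strand at chr6:88883474-88898780, and the divergent gene Tpra1, a membrane protein gene, begins 3471 bp away. The neuron CHD4 peak at chr6:88898101-88903150 (24.7th percentile) reached 679 bp into Mcm2, but its highest signal lay 124.5 bp inside Tpra1, 3595.5 bp from the Mcm2 start. The proliferating CHD4 peak at Tpra1 (chr6:88900751-88903100, 17.5th percentile) ended 1971 bp from Mcm2, outside the 1-kb window, with its highest signal 24.5 bp inside Tpra1. H3K4me3 at Tpra1 began 1971 bp from Mcm2 in neurons and 1321 bp from it in proliferating cells. When only positions of highest signal were placed, Mcm2 had CHD4 in neither state. Inside Mcm2 a p300 peak was listed in proliferating cells only (chr6:88884751-88888250, 3.67th percentile); it overlapped no CHD4 or H3K4me3 peak.

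By total signal, the strongest CHD4 peak and the strongest p300 peak of each state within 50 kb of any of the 10 genes lay upstream of Mcm2. They lay beyond the 3′ end of Tpra1, away from coding gene ends and without H3K4me3. In neurons CHD4 covered 22250 bp there as 1 peak (chr6:88922701-88944950, rank 57 of 4599). In proliferating cells it formed 2 peaks, of 5600 bp (rank 147 of 4919) and 12550 bp (rank 225). p300 was listed in neurons at the nearer site only (7300 bp, rank 80 of 965) and in proliferating cells at both sites (3500 bp, rank 159 of 3144, and 9700 bp, rank 263). The farther site's proliferating peaks ranked below the CHD4 peak at E2f2 (rank 169) and the p300 peak at Id3 (rank 228). At the nearer site the highest signal of all 4 peaks lay on the same 50 bp, chr6:88925801-88925850, 27045.5 bp from the Mcm2 start. At the farther site CHD4 and p300 of proliferating cells shared chr6:88943051-88943100, inside the span of the long noncoding RNA gene Gm36354. These lists do not show which gene, if any, such a site acts on. The third neuron p300 peak near these genes lay on the other side of Mcm2, where the ends of Podxl2 and Abtb1 meet, at the 0.622nd percentile; CHD4 there spanned 6800 bp in neurons (72.1st percentile) and 7150 bp in proliferating cells (78.0th).

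**Figure D4:**
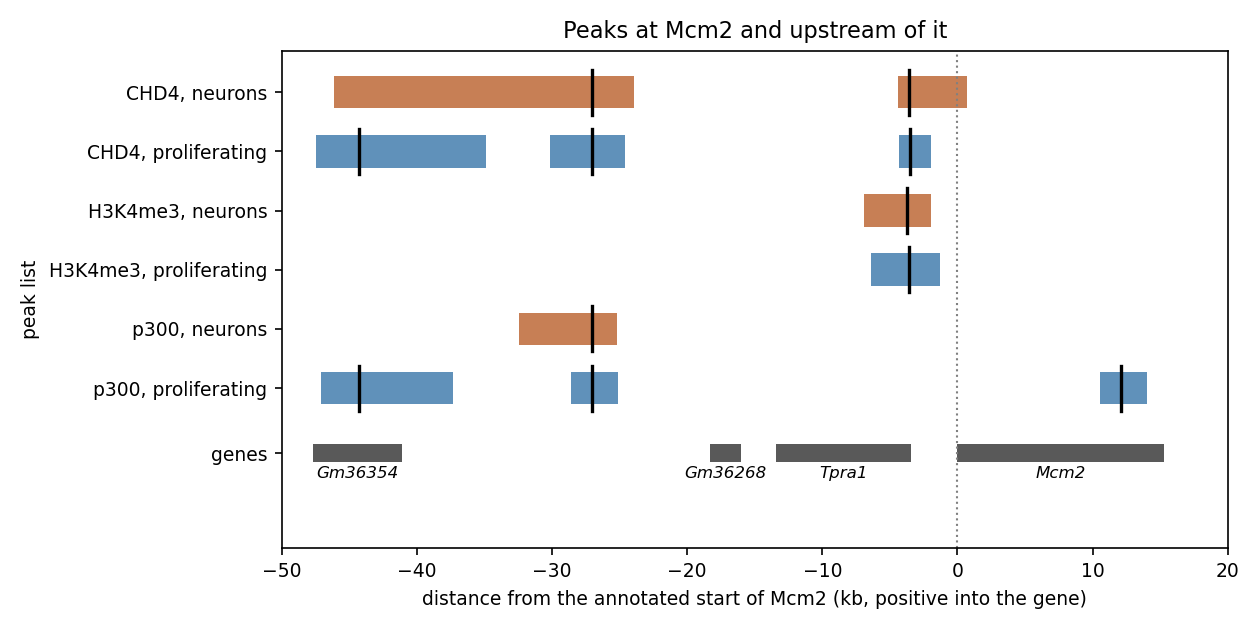
Peaks of the 6 lists around Mcm2 and upstream of it, with distance from its annotated start in kb on the x axis, positive into the gene, and 1 row per list, neurons in orange above proliferating cells in blue. Bars are peaks, black ticks are positions of highest signal, the dotted line is the Mcm2 start, and grey bars are genes. The CHD4 ticks near the start stand at Tpra1 in both states, and only the neuron bar crosses the Mcm2 start.

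Mcm6 and Pcna had CHD4 at their start in proliferating cells only, and both peaks were narrow and low in total signal within that list. The Mcm6 peak spanned 2250 bp (chr1:128358601-128360850, rank 4646 of 4919) and the Pcna peak 1400 bp (chr2:132252451-132253850, rank 4712). As the neuron list holds 4599 peaks, neither would be in a proliferating list trimmed to the same length by total signal. By highest signal the Mcm6 peak stood at the 46.2nd percentile and the Pcna peak at the 37.3rd, and by signal per bp at the 41.2nd for Mcm6 and the 79.0th for Pcna. Their highest CHD4 signal lay 20.5 bp upstream of the Mcm6 start and 45.5 bp upstream of the Pcna start. p300 was listed at the same places in proliferating cells only, at the 6.87th percentile for Mcm6 and the 33.8th for Pcna. H3K4me3 was listed at Mcm6 in both states, over 3450 bp in neurons (15.4th percentile) and 3300 bp in proliferating cells (33.5th). At Pcna it spanned 5850 bp in neurons (84.5th percentile), across the whole gene but for its last bases, and 3300 bp in proliferating cells (83.9th). Pcna lies 158 bp from the gene span of its divergent neighbour Cds2, a phospholipid synthesis gene, so these peaks count for both. In their flanks CHD4 was listed once near each gene in proliferating cells only, 8821 bp beyond Pcna (20.3rd percentile) and within 50 kb of Mcm6 (16.1st).

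The promoters of Mcm6 (chr1:128359656-128359955, minus strand, E2F cores in capitals) and Pcna (chr2:132253131-132253430, minus strand, the 50 bases of highest CHD4 signal in capitals, no E2F core matched) are shown because both contain their gene's CHD4 summit. The Mcm6 promoter holds 3 runs of E2F cores, in 2 of which cores on both strands overlap.
Mcm6 start: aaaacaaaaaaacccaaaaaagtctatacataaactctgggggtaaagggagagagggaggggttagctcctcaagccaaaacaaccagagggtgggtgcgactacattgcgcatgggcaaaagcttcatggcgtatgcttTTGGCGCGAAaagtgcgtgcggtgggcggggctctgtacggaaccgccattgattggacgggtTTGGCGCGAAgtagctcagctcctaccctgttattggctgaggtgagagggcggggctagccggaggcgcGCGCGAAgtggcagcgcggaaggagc
Pcna start: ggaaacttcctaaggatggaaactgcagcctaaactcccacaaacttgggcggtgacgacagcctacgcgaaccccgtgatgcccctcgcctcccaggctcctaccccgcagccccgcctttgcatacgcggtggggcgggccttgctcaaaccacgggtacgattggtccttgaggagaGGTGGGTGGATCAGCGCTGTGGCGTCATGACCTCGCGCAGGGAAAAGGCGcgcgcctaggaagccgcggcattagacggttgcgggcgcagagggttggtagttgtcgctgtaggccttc

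Mcm4, Mcm5 and Mcm3 had CHD4 at no end in either state. Mcm4 (chr16:15623897-15637400) lies 44 bp from Prkdc, which encodes the catalytic subunit of DNA-dependent protein kinase, and shares its peaks with it. H3K4me3 there spanned 3450 bp in neurons (68.4th percentile) and 3300 bp in proliferating cells (83.9th). A p300 peak of 1800 bp (20.1st percentile) was listed in proliferating cells only, and it was the only p300 peak at an end of the 10 genes without an overlapping CHD4 peak. Mcm5 (chr8:75109468-75128439, plus strand) had H3K4me3 alone, over 4800 bp in neurons (43.0th percentile) and 3500 bp in proliferating cells (47.9th), with its highest signal 116.5 bp inside the start in both.

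Mcm3 (chr1:20802966-20820312, minus strand) had no peak of any list within 50 kb, which was so for 35% of all protein-coding genes. The lists hold only peaks past the authors' threshold, so this does not show that its promoter lacks the mark. The promoters of Mcm3 (chr1:20820263-20820562) and Mcm5 (chr8:75109259-75109558) are shown because both hold E2F cores, in capitals, without a CHD4 peak.
Mcm3 start: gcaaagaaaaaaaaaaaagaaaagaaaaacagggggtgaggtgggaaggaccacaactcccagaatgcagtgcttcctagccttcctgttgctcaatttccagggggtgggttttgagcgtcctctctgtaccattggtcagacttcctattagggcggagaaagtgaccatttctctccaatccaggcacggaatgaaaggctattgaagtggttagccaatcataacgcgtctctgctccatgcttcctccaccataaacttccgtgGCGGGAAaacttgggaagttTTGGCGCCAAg
Mcm5 start: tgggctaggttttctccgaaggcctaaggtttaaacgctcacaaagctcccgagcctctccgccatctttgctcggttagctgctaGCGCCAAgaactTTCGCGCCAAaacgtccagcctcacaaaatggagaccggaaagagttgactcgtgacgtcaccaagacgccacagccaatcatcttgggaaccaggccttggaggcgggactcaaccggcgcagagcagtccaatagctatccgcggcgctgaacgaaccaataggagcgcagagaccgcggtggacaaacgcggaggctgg

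A core of the E2F motif was counted wherever the 300-base promoter held TTCCCGC on either strand. The word TTGGCGC, the word TTGCCGC and, as the last form accepted, the word TTCGCGC were treated alike, and overlapping matches were joined. Of the 10 genes, 9 had 12 such promoters in the RefSeq table. A core was found in 7 of the 12 (58.3%), against 12.1% of 21263 promoters of protein-coding genes and 19.6% of the 8046 within 1 kb of a proliferating H3K4me3 peak. By gene, E2f2, E2f3, Mcm3, Mcm5, Mcm6 and Mcm7 had a core in at least 1 promoter and E2f1, Mcm2 and Pcna had none in the windows searched. The E2f1 window lies wholly inside the gene span, since its annotated start does, so the bases before the outer end of E2f1 were not searched. Presence of a core in these windows and of CHD4 did not run in parallel: Pcna had CHD4 without a core, and Mcm3 and Mcm5 had a core without CHD4. The NF-Y box CCAAT was in 10 of the 12 promoters (83.3%, against 38.2% of all promoters and 39.3% of those with the proliferating mark). It shared bases with an E2F core in 1 promoter, at the outer start of Mcm7. The CHR words TTTGAA or TTCGAA, an element of late cell cycle promoters, were in 4 (33.3%, against 17.6% of all and 12.6% of those with the mark). The E-box CACGTG was in 1 (8.33%, against 7.84% of all and 10.5% of those with the mark). A match describes letters in a window and not a bound site, and several of these genes are textbook E2F targets.

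The summits of CHD4 and p300 lay closer together at the starts of these genes than those of CHD4 and H3K4me3. In proliferating cells 6 genes had both CHD4 and p300 over the start region, E2f2 included through its gene body peak. Measured between their first bases, the positions of highest signal coincided at E2f1, E2f2, E2f3, Mcm6 and Mcm7 and lay 50 bp apart at Pcna. This takes the nearer of 2 p300 peaks at E2f2, the other being 3000 bp away. Over all 14 overlapping pairs within 50 kb of the 10 genes, flanks included, 8 lay within 50 bp, close to the share over all overlapping pairs of proliferating p300 and CHD4 peaks (59.4% of 2923). CHD4 and H3K4me3 summits at the same 6 genes lay between 50 bp (E2f1) and 7850 bp (E2f2) apart in proliferating cells, with 1 of 6 within 50 bp, and over all 14 overlapping pairs within 50 kb 3 did, against 27.7% of 2080 overlapping pairs in all. In neurons they lay between 100 bp (Mcm7) and 7850 bp (E2f2) apart at E2f1, E2f2, E2f3 and Mcm7, with 0 of 4 within 50 bp. Mcm2 was left out because its neuron CHD4 peak had its highest signal at Tpra1, 150 bp from that of H3K4me3. Of all neuron pairs within 50 kb, 0 of 7 were within 50 bp, against 15.3% of 1247 pairs.

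The CHD4 summits lay at the same places in both states while the widths differed. At E2f1, E2f2, E2f3 and Mcm7 the CHD4 summits of neurons and proliferating cells lay within 50 bp of each other, which held for 54.3% of the 1493 genes with 1 CHD4 peak at their ends in each state. The neuron CHD4 peak was the wider one at 3 of these 4 genes (81.1% of the 1493). H3K4me3 summits lay within 50 bp at 6 of 8 genes (50.4% of 6021), the exceptions being E2f1 at 250 bp and Mcm4 at 100 bp. The neuron H3K4me3 peak was wider at 7 of the 8 (61.9% of 6021), by a median of 725 bp over the 8 genes and 250 bp over the 6021.

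Of all peaks within 50 kb of the 10 genes, 12 of 13 neuron CHD4 peaks overlapped a proliferating one and 14 of 20 proliferating CHD4 peaks overlapped a neuron one. For H3K4me3, 14 of 14 neuron peaks and 14 of 20 proliferating peaks did so. For p300, 2 of 3 neuron peaks overlapped a proliferating one and 2 of 15 proliferating peaks overlapped a neuron one. These 2 sites were those at Pxmp4 and upstream of Mcm2. The whole lists hold 965 neuron and 3144 proliferating p300 peaks. Across all genes p300 was at an end of 1.24% in neurons, 8.44% in proliferating cells and 0.896% in both. The share of shared peaks over the whole lists is not given here for any antibody, so these counts only describe the loci. All 3 neuron p300 peaks and 13 of 15 proliferating ones overlapped CHD4, the exceptions being those at Mcm4 and inside Mcm2. Over the whole neuron lists, 965 p300 peaks formed 964 overlapping pairs with CHD4 peaks. In proliferating cells 3144 p300 peaks formed 2923 such pairs. A peak can enter more than 1 pair, but overlap of p300 with CHD4 was common across the lists and not particular to these genes. The neuron p300 list is the shortest of the 6. With the proliferating list trimmed to its length, p300 was listed at an end of E2f1 and Mcm7 in proliferating cells and of 0 of the 10 genes in neurons. The share of all genes under this trimming is not given here, so these counts have no background. The part that list length plays in the remaining difference was not tested.

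The wider replication pathway was described by 68 further genes in 7 groups. CHD4 was at an end of 7 of them in neurons (10.3%, against 9.95% of all genes) and of 11 in proliferating cells (16.2%, against 11.8%). H3K4me3 was at 39 in neurons (57.4%, against 30%) and 51 in proliferating cells (75%, against 37.6%). p300 was at 0 in neurons (against 1.24%) and 6 in proliferating cells (8.82%, against 8.44%). The neuron CHD4 share and the proliferating p300 share were close to those of all genes. All 7 genes with CHD4 in neurons also had it in proliferating cells. Among them were the origin licensing genes Cdc6 and Cdt1, the fork genes Gins2, a subunit of the replicative helicase, and Recql4, a helicase, the nucleotide supply gene Tk1 (thymidine kinase) and the histone chaperone gene Asf1b.

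The strongest of these peaks lay at Cdc6, which loads the MCM complex, with CHD4 over 9950 bp in neurons (79.0th percentile) and 12650 bp in proliferating cells (94.5th). This peak was at the opposite end of Cdc6 from its H3K4me3 peak and did not overlap it in either state. In neurons CHD4 covered chr11:98924001-98933950 and H3K4me3 chr11:98907151-98910750. The position of highest CHD4 signal and the neighbouring genes there are not given here, so the peak cannot be credited to Cdc6 alone. Recql4 had the widest neuron peak, 18350 bp (46.9th percentile), against 4300 bp in proliferating cells (24.0th). The proliferating CHD4 peak (chr15:76699451-76703750) did not overlap the strongest proliferating H3K4me3 peak at the ends of Recql4 (chr15:76708501-76712000). The neuron CHD4 peak (chr15:76693301-76711650) reached into that stretch. The neighbouring genes are not given here, so these peaks cannot be credited to Recql4 alone. Cdt1, the partner of CDC6 in licensing, had 11500 bp in neurons (57.5th percentile) and 4050 bp in proliferating cells (35.4th). At Gins2 CHD4 was listed in both states, at the 52.6th percentile in neurons and the 75.6th in proliferating cells, while H3K4me3 was listed in proliferating cells only. CHD4 stood at the 13.6th percentile in neurons and the 75.4th in proliferating cells at Tk1. At Asf1b it stood at the 27.0th percentile in neurons and the 61.6th in proliferating cells.

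Listed with CHD4 in proliferating cells only were Rrm2, the ribonucleotide reductase subunit (13.3rd percentile), Dut, the dUTPase (7.37th), Chaf1b, a subunit of chromatin assembly factor 1 (26.6th), and Uhrf1, which recruits DNMT1 to replicated DNA (25.2nd), and each had H3K4me3 in both states, at Uhrf1 with its strongest peak at the other end of the gene from CHD4. None of 10 E2F and pocket protein partners, among them E2f4 to E2f8, and none of 19 polymerase and clamp loading genes had CHD4 in either state, while H3K4me3 was at 8 of the 10 in each state and at 8 of the 19 in neurons and 12 in proliferating cells. Across all genes CHD4 was at an end of 9.95% in neurons and 11.8% in proliferating cells. Among genes with H3K4me3 at an end these shares were 23.6% in neurons and 27.1% in proliferating cells. Of the 68 genes, 6 of the 39 with the mark in neurons and 11 of the 51 in proliferating cells also had CHD4. Whether counts of 0 in groups this small differ from these shares was not tested. H3K4me3 was listed in neurons only at 1 of the 68 genes (Tfdp1, the dimer partner of E2F proteins) and in proliferating cells only at 13; across all genes 0.612% had it in neurons only and 8.21% in proliferating cells only.

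**Figure D5:**
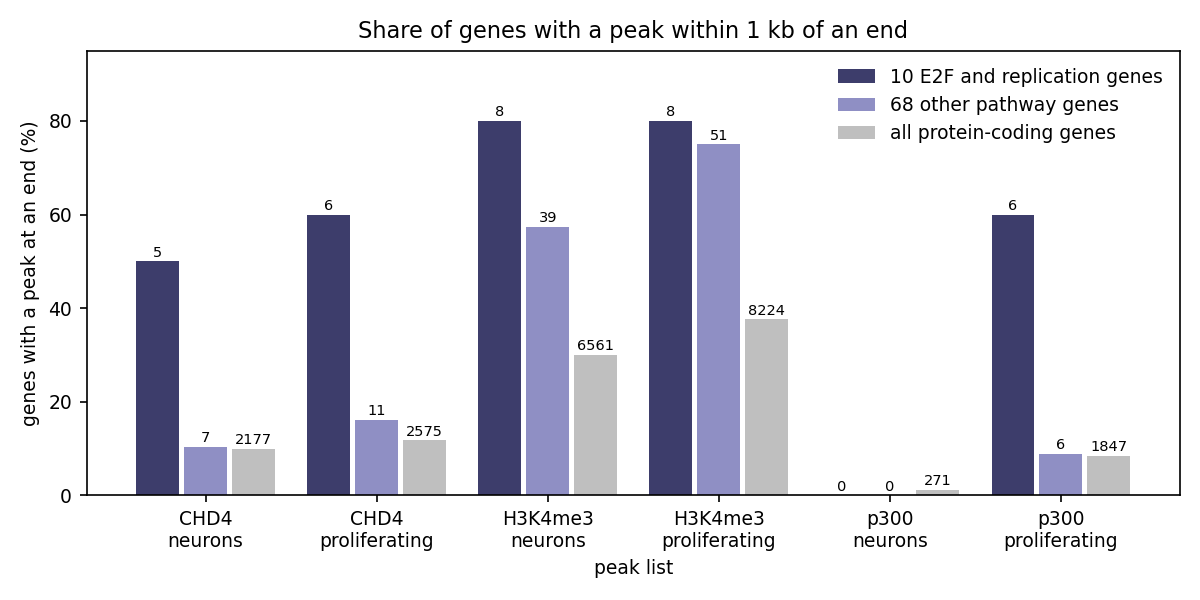
Share of genes with a peak within 1 kb of an end (y axis, percent) in each of the 6 lists (x axis), for the 10 E2F and replication genes, 68 other pathway genes and all 21887 protein-coding genes, with the number of genes above each bar. For neuron CHD4 and for proliferating p300 the bars of the 68 genes stand close to those of all genes, and for H3K4me3 both gene lists stand above all genes.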

How the data were processed

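CUT&Tag uses an antibody to bring a transposase to a chromatin target. CHD4, H3K4me3, p300 and IgG libraries of neurons and proliferating iMOPs were made from 500000 cells each and sequenced as paired reads, per the labels' protocols. The submitters' processing notes name mm10, Bowtie2, deepTools and SEACR, without versions. The authors deposited 1 peak list per antibody and state, analysed here except for IgG; columns 4 and 5 of each list hold the total and the highest signal of a peak, in a unit that is not given, and the deposited signal was used only to rank peaks within a list. Read depth is unknown, and no source used here says whether a list pools libraries.

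Peaks were intersected (at least 1 shared bp) with windows of 1 kb around both ends of 21887 protein-coding genes on chromosomes 1 to 19, X and Y (RefSeq, GRCm38.p6, the assembly named mm10 in genome browsers), with gene bodies and with 50-kb flanks, in Python 3.11.15 with pandas 2.3.3 and NumPy 2.4.6. Promoter and miRNA sequences came from RefSeq tables of the same assembly and covered 9 of the 10 genes. Every gene of the list was named, and of the 68 further pathway genes those with a CHD4 peak at an end, except 1 that is not reported here. The overlap code was tested on simulated data and recovered 200 of 200 planted peaks in each list. The genes, pathway list and markers were chosen with earlier results of these data known. Alternatives changed the window, flank, ranking, list length and required overlap; 2 of them were added after seeing the data.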

Additional observations from a re-analysis of the deposited data

How the results depend on the processing

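Of 116 values recomputed under other settings, 88 stayed within 1.5 times the main count, or within the counting interval of a median percentile, and 28 did not. That interval took the number of peaks in the list as its sample size, not the number of genes behind the median. It is therefore narrow and does not measure the spread of a median over so few genes. With the stronger 50% of each list, which removes peaks by construction, CHD4 was at an end of 2 of the 10 genes in neurons and 3 in proliferating cells, H3K4me3 at 5 in neurons and p300 at 2 in proliferating cells. Of the 68 pathway genes CHD4 was then at 3 in neurons and 5 in proliferating cells, H3K4me3 at 18 in neurons and 26 in proliferating cells and p300 at 3 in proliferating cells, and the peaks within 50 kb of the 10 genes were 6 CHD4 peaks in neurons and 11 in proliferating cells, 8 H3K4me3 peaks in neurons and 11 in proliferating cells, and 9 p300 peaks in proliferating cells. With both lists of an antibody trimmed to equal length, p300 in proliferating cells was at 2 of the 10 genes and 1 pathway gene (Tk1), and CHD4 in proliferating cells at 4 of the 10, without Mcm6 and Pcna. The shares of all genes under these shortened lists are not given here. Counting a peak only where its position of highest signal lay in the window, a setting added after seeing the data, left CHD4 at 3 genes in neurons, without Mcm2 and E2f2, as the construction of the setting gives. A 25-kb flank left 1 neuron p300 peak, and asking for 50% of the peak to be covered left 1 neuron p300 peak overlapping a proliferating one. The median percentile ranked by highest signal was 29.0 in neurons for CHD4, 56.0 in neurons and 68.1 in proliferating cells for H3K4me3 and 58.2 in proliferating cells for p300. Ranked by total signal per bp it was 39.5 in neurons and 68.3 in proliferating cells for CHD4, 30.4 in neurons and 74.1 in proliferating cells for H3K4me3 and 71.5 in proliferating cells for p300; the cause was not tested. No paired analysis was possible because each state has 1 library per antibody. With 1 library each, no spread between cultures is known, and a gene missing from a list may hold signal below the authors' threshold. Peaks shared with divergent neighbours (Mcm4, Mcm7, Pcna) cannot be assigned to 1 gene.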
